A study of Homo sapiens with 3 samples.

Results

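RPL22 and RPL22L1 encode paralogous proteins of the large ribosomal subunit, and the pair is described here in HEK293T cells carrying either of 2 DDX24 hairpins. They are 2 of the 67008 gene models in the count table. Both were chosen by their read counts in these same libraries, because RPL22 was higher with both hairpins and RPL22L1 was lower mainly with the second one. Their levels and ratios are therefore a description, and no test is given for them.

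RPL22 is a component of the ribosome that binds RNA outside it as well, and cells without it still translate. RPL22L1 is a closely related protein that can take its place. In mouse, loss of Rpl22 raises Rpl22l1, and the Rpl22 protein binds the Rpl22l1 transcript, so the paralogs are known as a pair in which one restrains the other. RPL22 also affects the splicing of MDM4, a relative of MDM2, and the gene is recurrently mutated in cancers with microsatellite instability.

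The shDDX24-1 and shDDX24-2 libraries came from HEK293T cells, a human embryonic kidney line with SV40 large T antigen, whose genotype is given as DDX24 knockdown. The pLKO.1 library came from the same line with the hairpin vector alone and a genotype of WT. All cells were infected with lentivirus at a multiplicity of 5 in the presence of polybrene and carry a time label of 72 hours. Each library is 1 of its kind, so the control has no replicate, and nothing states that the cultures were separate. The libraries held 36738685 counts (shDDX24-1), 37828270 counts (shDDX24-2) and 52198744 counts (pLKO.1). DDX24 itself was listed at 0 counts in all 3 libraries, so the knockdown could not be read from these data. Of 7 markers of HEK293 cells, 5 reached 5 CPM (the count scaled to library size) in 1 library or more, among them INA at 57.8 CPM (shDDX24-1), 91.4 CPM (shDDX24-2) and 78.4 CPM (pLKO.1). The list summed to 157, 202 and 164 CPM in that order. PAX2 was under 5 CPM in every library and LHX1 had 7, 2 and 4 counts in the same order. The 6 markers of leukocytes, endothelium, liver and fibroblasts summed to 25.1, 20.3 and 20.8 CPM in that order, nearly all of it COL1A1. CD3E was at 0 in every library, and the part of these markers in any difference was not tested.

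RPL22 (ENSG00000116251.11) lies on GRCh38 chromosome 1, 6185020 to 6209389, on the minus strand. RPL22L1 (ENSG00000163584.18) lies on chromosome 3, 170864875 to 170870208, also on the minus strand. The ends of their promoters are shown because transcripts of ribosomal proteins typically begin in a run of pyrimidines. Each stretch runs from 60 bases before the annotated start to 10 bases after it, read 5′ to 3′ on the gene's own strand from RefSeq, build GRCh38.p14. RPL22 is chr1:6199586-6199655 and RPL22L1 is chr3:170870186-170870255. Capitals mark the run of C and T at the start and any TATAAA.

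RPL22: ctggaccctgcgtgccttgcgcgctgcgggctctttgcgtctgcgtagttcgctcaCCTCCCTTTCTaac
RPL22L1: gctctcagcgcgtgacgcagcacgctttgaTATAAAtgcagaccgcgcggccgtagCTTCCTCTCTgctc

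The pyrimidine run spans 11 bases in RPL22 and 10 bases in RPL22L1. A run of at least 8 bases touching the start was found in 60.3% of 78 promoters of cytosolic ribosomal protein genes, against 6.88% of all 35116 promoters. The sequences differ in TATAAA, which begins 30 bases before the start of RPL22L1 and is not in the RPL22 window on either strand. On the gene's strand it was found in 2.91% of all promoters in a window of the same length. These matches describe letters and carry no statement about a factor that binds them.

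The longest coding transcripts of the paralogs, 2078 nt for RPL22 and 2190 nt for RPL22L1 in GENCODE release 29, have little exact sequence in common. The longest run they share is 17 nt, shown because it bounds how far a read can match both exactly. Alignments with mismatches, and other transcripts of these genes, were not compared.

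RPL22 and RPL22L1, shared run: aaaaggtatttgaaata

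No window of 100 nt, the read length, of the RPL22L1 transcript occurred in that of RPL22 (0 of 2091). The processed pseudogene RPL22P1 (chromosome 3, 169483671 to 169484080) is different: of its 311 windows of that length, 194 (62.4%) occur unchanged in the RPL22 transcript, and the longest shared run is 293 nt.

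RPL22 was higher with each hairpin. It was at 119.6 CPM in the shDDX24-1 library and 129 CPM in the shDDX24-2 library, against 77.9 CPM in the pLKO.1 library. These levels rest on 4425, 4779 and 4116 counts in that order. The hairpin libraries lay close together and both lay above the control. Their mean was 124 ± 6.43 CPM (SD, n = 2). The log2 ratio to pLKO.1 was 0.62 with shDDX24-1 (95% exact binomial interval 0.56 to 0.68), a 1.54-fold difference. With shDDX24-2 it was 0.72 (0.66 to 0.79), a 1.65-fold difference. The intervals cover counting error only. In bulk RNA, a different level per cell and a different mix of cells cannot be told apart.

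RPL22L1 was lower mainly with the second hairpin. It was at 51.3 CPM in the shDDX24-1 library and 26.5 CPM in the shDDX24-2 library, against 56.6 CPM in the pLKO.1 library, from 1897, 982 and 2991 counts. The shDDX24-1 library sat just under the control, and the shDDX24-2 library far below both. The knockdown mean was 38.9 ± 17.6 CPM (SD, n = 2). The log2 ratio to pLKO.1 was -0.14 with shDDX24-1 (-0.23 to -0.06) and -1.10 with shDDX24-2 (-1.20 to -0.99), and the level with shDDX24-2 was 2.14-fold lower. Between the hairpins, RPL22L1 had a log2 ratio of -0.95 for shDDX24-2 over shDDX24-1 (-1.07 to -0.84). For RPL22 the same ratio was 0.11 (0.05 to 0.16).

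**Figure D1:**
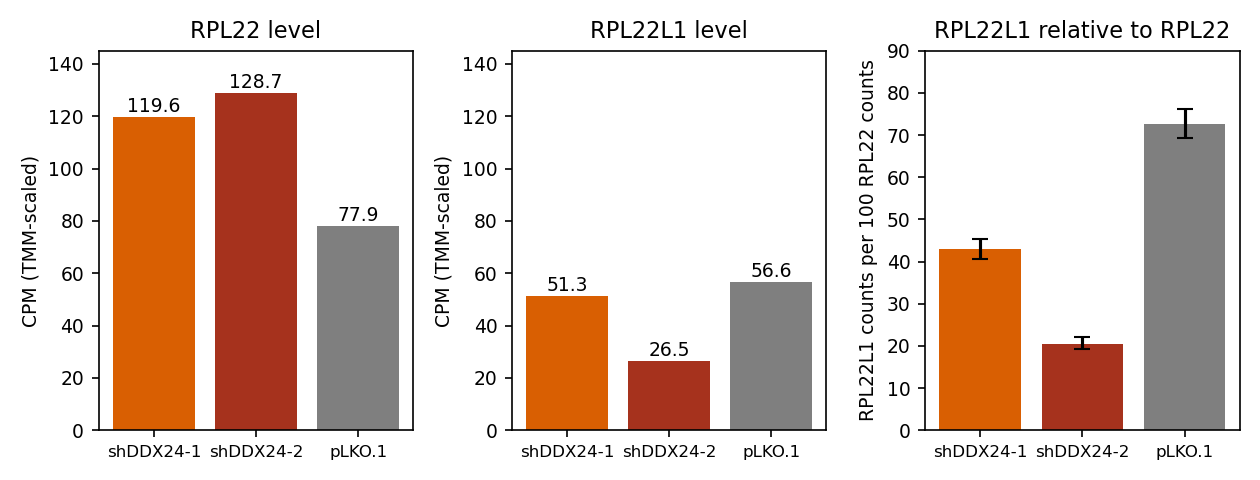
Levels of RPL22 and RPL22L1 in CPM in each library (1 bar per library, no replicates) and RPL22L1 counts per 100 RPL22 counts, with 95% exact binomial intervals that cover counting error only. RPL22 is taller in both hairpin libraries (119.6 and 129 CPM) than in pLKO.1 (77.9 CPM), and RPL22L1 is lowest at 26.5 CPM with shDDX24-2.

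The balance between the paralogs needs no scaling by library size, since both genes are counted in the same library. There were 42.9 RPL22L1 counts per 100 RPL22 counts with shDDX24-1 (95% exact interval 40.6 to 45.2) and 20.5 with shDDX24-2 (19.2 to 22.01), against 72.7 with pLKO.1 (69.3 to 76.2). The intervals cover counting error only and are no test, since the ratio is built from the counts the pair was chosen by. The log2 change of this ratio from pLKO.1 was -0.76 with shDDX24-1 (interval -0.87 to -0.66) and -1.82 with shDDX24-2 (-1.94 to -1.70). With shDDX24-1 most of that shift lay in RPL22, and with shDDX24-2 RPL22L1 contributed more than RPL22.

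Per length of transcript, RPL22 was the higher of the paralogs in every library. The level of RPL22 was 57.6 CPM per kb with shDDX24-1, 61.9 with shDDX24-2 and 37.5 with pLKO.1. The level of RPL22L1 was 23.4, 12.1 and 25.8 CPM per kb in the same order. The RPL22L1 transcript used for length begins at 170870483 in GENCODE release 29, upstream of the gene's end in the count table, so its length there may be too long and its level per kb too low. The summed level of the pair was 171 CPM with shDDX24-1 and 155 CPM with shDDX24-2, against 135 CPM with pLKO.1, so the sum was higher in both hairpin libraries. RPL22L1 made up 30.0% and 17.0% of the summed counts with the hairpins, against 42.1% in the control.

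Of the 10995 genes that reached 5 CPM in any library, 12 (0.109%) were at least 1.5-fold higher with both hairpins and 24 (0.218%) were at least 1.5-fold lower with both. RPL22 was 1 of those 12, and RPL22L1 was not among the lower ones because of its value with shDDX24-1. Ordered by the smaller of its ratios, RPL22 was number 10 of the 3782 genes (34.4%) that were higher with both. RPL22L1 was number 848 of the 3139 genes (28.5%) that were lower with both. With shDDX24-2 alone it was the number 32 lowest gene, and with shDDX24-1 alone number 2000. The members were picked on this contrast and the ratios share 1 control library, so these places are a description. In an edgeR quasi-likelihood fit over 17713 genes, 2 (0.0113%) were called lower across the knockdown group and 0 (0%) higher at an adjusted p under 0.05, and neither paralog was among them, from which nothing is read because they were chosen on this contrast. At an unadjusted p under 0.05 there were 243 higher and 448 lower genes. DESeq2 and limma-voom also called 0 higher.

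**Figure D2:**
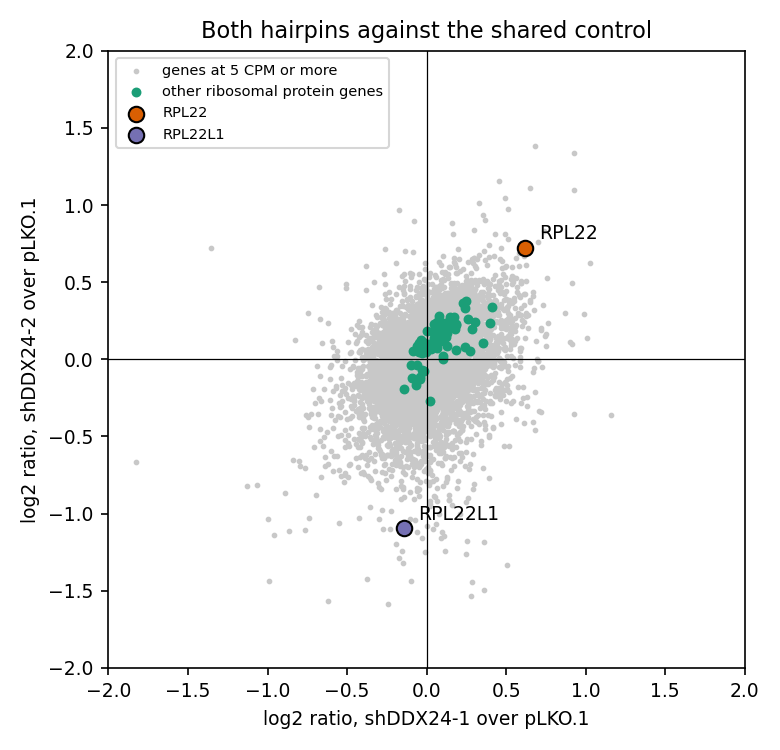
Log2 ratio to pLKO.1 with shDDX24-1 (horizontal) and shDDX24-2 (vertical) for genes at 5 CPM or more, with 2 genes beyond the axes left out. RPL22 (0.62, 0.72) lies beyond the other ribosomal protein genes on both axes, and RPL22L1 (-0.14, -1.10) lies low on the vertical axis only.

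The other proteins of the ribosome give the closest setting for RPL22. Of 79 cytosolic ribosomal protein genes listed, 74 reached 5 CPM and 2, RPL7A of the large subunit and RPS18 of the small subunit, were at 0 in all 3 libraries. Leaving RPL22 out, 54 of 73 (74.0%) were higher with both hairpins and 9 (12.3%) were lower, against 34.4% and 28.5% of all genes. The shares of all genes depend on scaling: with library totals, 3202 of 10997 were higher and 3820 lower with both. A recount of the ribosomal protein genes under that scaling is not given here. The median log2 ratio of the 73 was 0.07 with shDDX24-1 and 0.14 with shDDX24-2, against 0.004 and 0.02 for all genes. By edgeR 0 of them were called in either direction, and only RPS15A, 1 gene, had an unadjusted p under 0.05. Of all 17713 genes tested, 2 (0.0113%) were called, and 243 higher and 448 lower genes had an unadjusted p under 0.05.

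RPL22 was at 77.9 CPM with pLKO.1, well below the median of 735 CPM for the other 73 genes. The reason was not tested, and the copies and overlapping gene model described below limit what its count holds. RPL22 had the highest log2 ratio of the 74 with each hairpin. Next were RPS15A, of the small subunit, at 0.41 with shDDX24-1 and RPS23, also of the small subunit, at 0.37 with shDDX24-2. None of the other 73 (0) was at least 1.5-fold higher with both. Ordered instead by the smaller of the ratios with the hairpins, RPL41 followed among large-subunit genes, at 584 CPM (shDDX24-1) and 622 CPM (shDDX24-2) against 493 CPM (pLKO.1), and then RPL26 at 26.6 and 23.8 CPM against 20.2 CPM. Lowest with both in that subunit were RPL12, RPL34 and RPL23A, with log2 ratios between -0.17 and -0.04. In the small subunit RPS15A was at 61.3 and 58.3 CPM against 46.0 CPM, and RPS27 at 728 and 729 CPM against 608 CPM. RPS19 was lowest there, at 770.5 and 743 CPM against 850 CPM, followed by RPS13 and RPS3A.

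Set against the summed counts of the other 73 genes, RPL22 had 1.87 counts per 1000 with shDDX24-1 and 1.92 with shDDX24-2, against 1.27 with pLKO.1. Relative to the rest of the ribosomal protein transcripts, RPL22 was above the control in both hairpin libraries. The ratio holds the RPL22 counts the gene was chosen by, so it is a description and adds no support. On this scale the log2 ratio of RPL22 was 0.56 with shDDX24-1 and 0.60 with shDDX24-2.

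**Figure D3:**
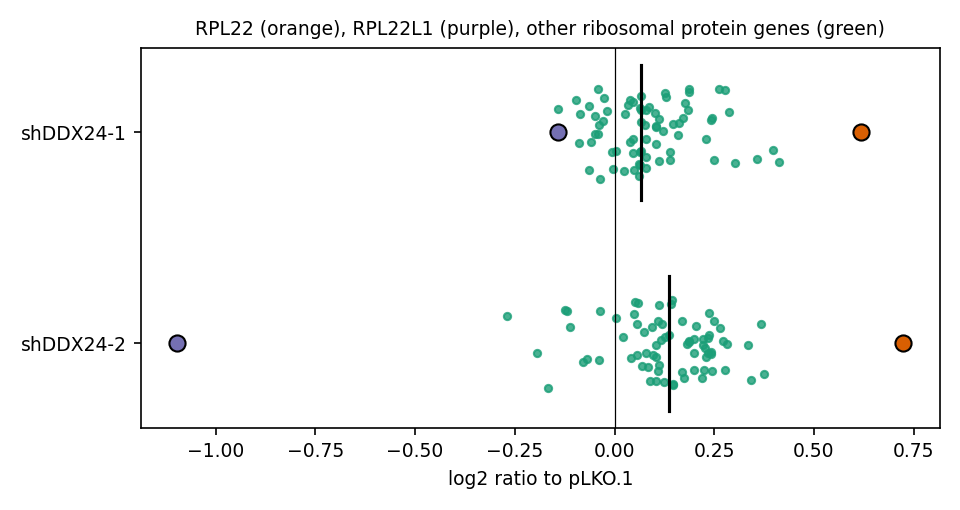
Log2 ratio to pLKO.1 of RPL22 (orange), RPL22L1 (purple) and 73 other cytosolic ribosomal protein genes (green, spread vertically for sight), by hairpin, with the median of the 73 as a bar. RPL22 lies above all 73 with each hairpin, and RPL22L1 lies below all of them with shDDX24-2.

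Other ribosomal proteins also have paralogs, and of the 8 pairs listed 7 had both genes tested. RPL10L, a copy of RPL10 active mainly in testis, had 2, 2 and 3 counts and was not tested. The difference in log2 ratio between paralog and parent was -0.76 with shDDX24-1 and -1.82 with shDDX24-2 for RPL22L1 over RPL22, the lowest value of the 7 pairs with each hairpin. RPS27L, a close relative of RPS27, came next. It was at 24.4 CPM (shDDX24-1) and 25.9 CPM (shDDX24-2) against 32.7 CPM (pLKO.1), while RPS27 was higher with both hairpins. The difference for that pair was -0.68 and -0.60, much alike with the hairpins, unlike that of RPL22L1.

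In the remaining 5 pairs the paralog was higher with both hairpins. At 5 CPM or more, 34.4% of all genes and 74.0% of the other ribosomal protein genes were. The 5 are what remained once RPS27L, lower with both, was set apart, so no share is read from them. RPL3L was below 5 CPM. RPL39L had log2 ratios of only 0.05 and 0.11, from 449 (shDDX24-1), 468 (shDDX24-2) and 619 (pLKO.1) counts. RPL36AL was at 159.7 and 151 CPM against 125 CPM, and its parent RPL36A at 25.0 and 22.3 CPM against 21.1 CPM. RPL26L1 was at 70.4 and 67.4 CPM against 61.8 CPM, and RPL39L, a testis-enriched form of RPL39, at 12.1 and 12.6 CPM against 11.7 CPM. With pLKO.1, RPL36A and RPL26 (20.2 CPM) lay far below the median of 735 CPM for ribosomal protein genes other than RPL22. The reason was not tested, so no order of these parents and their paralogs is read from the levels. RPL7L1 had log2 ratios of 0.08 and 0.14, near those of RPL7 (0.05 and 0.17). RPL3L, the striated muscle form of RPL3, had 27, 29 and 36 counts, and RPL3 itself had log2 ratios of 0.02 and -0.27. No member of these pairs was called by edgeR, against 0.0113% of all genes tested.

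**Figure D4:**
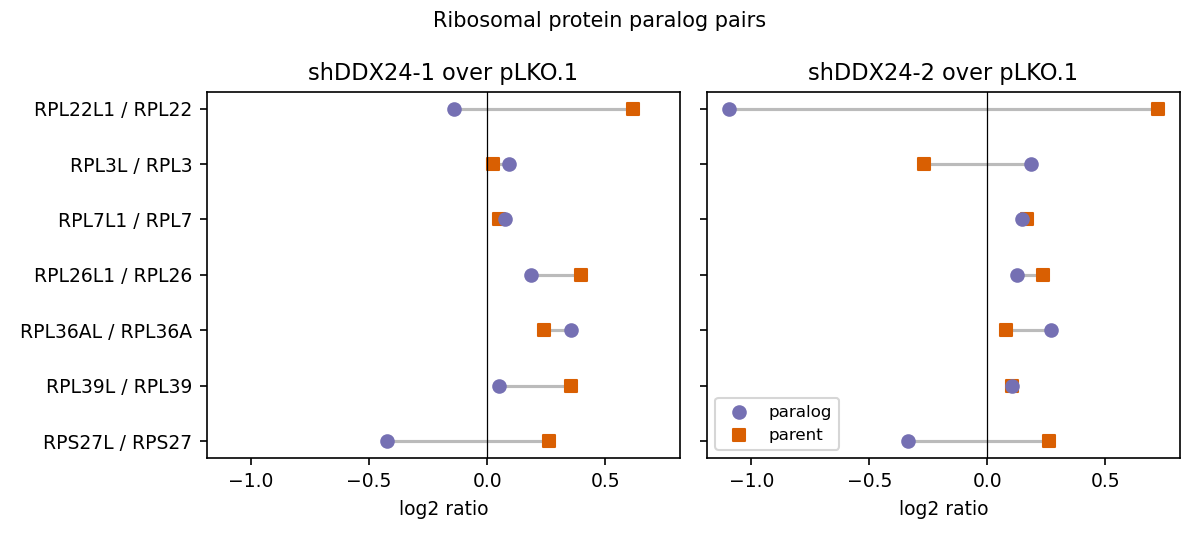
Log2 ratio to pLKO.1 of paralog (circle) and parent (square) for the 7 tested pairs, shDDX24-1 on the left and shDDX24-2 on the right. RPL22L1 and RPL22 are the farthest apart with each hairpin (-0.76 and -1.82), and RPS27L and RPS27 are next (-0.68 and -0.60).

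Pseudogenes and overlapping gene models limit what the RPL22 count holds. The table has 23 copies of RPL22, of which 14 had any count and 2 had 10 or more in a library, and 0 copies of RPL22L1. RPL22P1 had 511, 581 and 618 counts in the shDDX24-1, shDDX24-2 and pLKO.1 libraries, equal to 11.5%, 12.2% and 15.01% of the RPL22 count. Its log2 ratio to pLKO.1 was 0.24 (0.07 to 0.41) with shDDX24-1 and 0.42 (0.25 to 0.59) with shDDX24-2, above 0 and smaller than those of RPL22. RPL22P2 (chromosome 14) had 33, 52 and 39 counts. With all copies added, RPL22 had log2 ratios of 0.57 and 0.69.

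The gene model AL031847.2 overlaps RPL22 on the same strand and was at 0 counts in every library. In GENCODE release 29 it contains exons 2 and 3 of the RPL22 transcript in full, 230 of 2078 nt (11.1%). The treatment of reads that fall in both models was not given in the sources used here. With 0 counts for AL031847.2, no such read was counted for that model. Whether those reads were dropped or counted for RPL22 cannot be told, and the effect on the RPL22 level was not tested. RNF207, a ring finger gene, overlaps RPL22 on the opposite strand over 3915 bases and was at 10.0 and 7.92 CPM against 9.33 CPM. No gene model overlapped RPL22L1.

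Of genes at 5 CPM or more, the nearest on either side lay between 11804 and 558898 bases away. Around RPL22, log2 ratios with shDDX24-1 and shDDX24-2 were 0.02 and -0.04 for ICMT, which encodes a methyltransferase of prenylated proteins. They were 0.26 and -0.31 for GPR153, 0.06 and -0.43 for KCNAB2 and 0.01 and 0.01 for NPHP4. Around RPL22L1 they were 0.13 and -0.26 for EIF5A2, a translation factor gene 18210 bases away, and 0.02 and 0.08 for TNIK. PRKCI had -0.01 and -0.20 and SKIL -0.21 and -0.07. None of these 8 was called by edgeR (0 of 8), against 0.0113% of all genes tested. None had a ratio as large as that of RPL22 with both hairpins or RPL22L1 with shDDX24-2.

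RPL22L1 is also annotated with a transcript subject to nonsense-mediated decay. Its exon 3 begins earlier and adds 67 nt (chr3:170868135-170868201, minus strand), which is not a multiple of 3 and shifts the reading frame. The stretch is shown because gene counts pool both forms. Capitals mark the added bases, read from GENCODE release 29, and the lower-case bases are the start of the exon that both forms hold.

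RPL22L1, extended exon 3: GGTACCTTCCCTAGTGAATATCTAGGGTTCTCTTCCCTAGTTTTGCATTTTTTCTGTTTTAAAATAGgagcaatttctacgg

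The level of each form cannot be told from these counts, and the same holds for the MDM4 exon whose use depends on RPL22.

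Genes that RPL22 has been tied to were listed next. MDM4 was at 76.7 CPM with shDDX24-1 and 58.4 CPM with shDDX24-2, against 60.8 CPM with pLKO.1, so the hairpin libraries lay on either side of the control. SMAD1, a signal transducer whose transcript Rpl22 binds in zebrafish, was at 19.5 and 19.6 CPM against 22.1 CPM. LIN28B, a blocker of let-7 that rises on loss of Rpl22 in mouse T cell lymphoma, was at 169.8 and 117 CPM against 182 CPM. Its log2 ratio was -0.10 with shDDX24-1 and -0.64 with shDDX24-2, lower mainly with the second hairpin. None of these genes (0) was called by edgeR, and 0 had an unadjusted p under 0.05. Of all 17713 genes tested, 2 (0.0113%) were called, and 243 higher and 448 lower genes had an unadjusted p under 0.05. With so few genes listed, nothing is read from the absence of calls.

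A list of p53 checkpoint genes and ribosomal proteins that bind MDM2 held 7 genes at 5 CPM or more. Of these, 2 were higher and 4 lower with both hairpins, against 34.4% and 28.5% of all genes. The higher ones were RPL5 and RPL11, and the lower ones were MDM2, CDKN1A, BBC3 and BAX. CDKN1A, which encodes the cell cycle inhibitor p21, was at 5.92 and 5.23 CPM against 11.5 CPM. Its log2 fold change across the group was -1.05 ± 0.21 (SE), which did not pass edgeR (adjusted p = 0.999). CDKN1A was the only 1 of this list with an unadjusted edgeR p under 0.05 (0.00184), and 448 lower genes of all tested had such a p. MDM2, a ubiquitin ligase that ribosomal proteins can bind, was at 126 and 141 CPM against 152 CPM. BAX, an effector of apoptosis, was at 82.1 and 78.1 CPM against 89.5 CPM, and BBC3, which encodes PUMA, at 5.79 and 5.31 CPM against 5.87 CPM. The counting intervals for the log2 ratios of BBC3 took in 0 with each hairpin (-0.28 to 0.24 and -0.41 to 0.12). Of the ribosomal proteins that bind MDM2, log2 ratios were 0.03 and 0.10 for RPL5, 0.08 and 0.28 for RPL11 and -0.04 and 0.10 for RPL23. SESN2 was at 0 counts in all 3 libraries. Large T antigen interferes with this checkpoint, which limits the line as a model of it.

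Of 10 regulators of transcripts with a pyrimidine start, 4 were higher and 1 was lower with both hairpins, against 34.4% and 28.5% of all genes. LARP1, which binds the start of such transcripts, was at 598 and 659 CPM against 579 CPM. EIF4EBP2, an inhibitor of translation initiation, was lowest, at 227 and 171 CPM against 265 CPM. Median log2 ratios were 0.001 and 0.08, and edgeR called 0 of the 10, against 0.0113% of all genes tested.

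The genes nearest to each paralog by their pair of log2 ratios were taken from genes at 5 CPM or more, with the distance measured over 3 libraries. Nearest to RPL22 were the kinase gene SBK1 (distance 0.02), the long noncoding RNA LINC00641 (0.02), the pseudogene RPL5P34 (0.05), the mitochondrial creatine kinase gene CKMT1B (0.06) and the metallothionein gene MT2A (0.09). LINC00641 was at 43.3 and 45.8 CPM against 27.7 CPM, and CKMT1B at 18.6 and 19.3 CPM against 12.2 CPM. CKMT1B, MT2A and RPL5P34 have close copies, so their counts are uncertain. SBK1 and MT2A were at 4.33 and 4.07 CPM with pLKO.1, so they reached 5 CPM only in the hairpin libraries.

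Nearest to RPL22L1 were the nuclear pore gene NUP58 (0.07), the pseudogene EIF2S2P4 (0.09), the Fc receptor gene FCGRT (0.09), the kinetochore gene NUF2 (0.09) and the membrane protein gene TM9SF3 (0.11). TM9SF3 was at 295 CPM with shDDX24-1 and 147 CPM with shDDX24-2, against 338 CPM with pLKO.1, and NUP58 was at 156 and 81.9 CPM against 168 CPM. NUF2 was at 55.7 and 30.5 CPM against 65.3 CPM. As a pseudogene, EIF2S2P4 has an uncertain count as well. All 5 were chosen for this likeness, so the low value in the shDDX24-2 library is set by the choice.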

How the data were processed

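The authors deposited raw read counts per gene model for 3 libraries, not normalized. Poly(A) RNA was sequenced, per the labels' protocols, as paired-end reads of 100 bp. The submitters' processing notes name STAR 2.7.3a, DESeq2 1.26 and build GRCh38. Counter, strand setting and annotation were not given in the sources used here. Of the 67008 gene models, 41838 had the same identifier and version in GENCODE release 29, with coordinates equal for 100% of them. A shared version makes equal coordinates likely in advance, so this does not show that release 29 was the annotation used. RPL22L1 was not among the matches, since its transcript in release 29 reaches 170870483, beyond the gene's end at 170870208 in the counts.

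Counts were filtered with filterByExpr (minimum count 10), scaled by TMM and fitted with edgeR 4.0.16 (quasi-likelihood, Benjamini-Hochberg adjustment at 0.05) in R 4.3.3, both hairpins against the control. Its 1 residual degree of freedom comes from the spread of the hairpin libraries. The single control is assumed to vary as they do, and p-values reflect that spread, which may be technical. Log2 ratios used a prior count of 2. Intervals are exact (Clopper-Pearson, 95%; conditional for the change of the paralog ratio) and cover counting error only. Length is that of the longest protein-coding transcript. SE was taken as log2 fold change over root F.

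The paralogs and all lists were chosen with earlier results of these data known. Genes were named by rule: both paralogs, all tested paralog pairs, members of short lists (some are not reported here), the 3 highest and 3 lowest ribosomal protein genes of each subunit, neighbours, copies and the 5 genes most alike. Alternatives were other scalings, filters, prior counts, thresholds and tools (DESeq2 1.42.0, limma 3.58.1), removal of a GC and length trend, and leaving out each hairpin.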

Additional observations from a re-analysis of the deposited data

How the results depend on the processing

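The direction of each paralog with each hairpin was the same under all 6 alternatives tried. They were DESeq2 size factors, library totals, scaling to other ribosomal protein genes and a prior count of 0.5. The rest were copies added and a GC and length trend removed. Adding copies could not change RPL22L1, which has 0 copies, and a smaller prior count can hardly move counts of this size. The direction is also what the paralogs were chosen by. Scaling to the other ribosomal protein genes moved RPL22 to 0.56 (shDDX24-1) and 0.60 (shDDX24-2) and RPL22L1 to -1.22 with shDDX24-2, beyond the counting intervals. With copies added, RPL22L1 counts per 100 RPL22 counts were 38.1 and 18.1 with the hairpins, against 62.4 with pLKO.1. The count of genes called lower by edgeR was 0 with DESeq2 size factors, 7 with library totals, 0 without the low-count filter and 1 with the legacy fit. For comparison, limma-voom called 1 and DESeq2 called 3; 0 were called higher under each of these. By sign alone, 3782 genes were higher and 3139 lower with both hairpins under TMM, against 3202 and 3820 with library totals. The shares of all genes set beside the lists therefore depend on the scaling. The size rule gave 61 higher and 123 lower genes at a minimum of 1 CPM, and 0 and 2 at 2-fold. With 1 hairpin left out it gave 69 to 73 higher and 60 to 255 lower genes; edgeR then has no residual degrees of freedom and was not run. The cause of these changes was not tested, and fewer conditions per gene make the single-hairpin counts larger by construction. No paired analysis was possible because the control is 1 library.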
